A study of Rattus norvegicus with 6 samples.

Results

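Erythroid genes, here genes that red cell precursors of the bone marrow express as they make haemoglobin and mature, were followed in RNA sequencing libraries of rat bone. The 5 genes were chosen by Ensembl identifier from 32883 in the deposited table: Slc4a1 (ENSRNOG00000020951), Alas2 (ENSRNOG00000000167), Tfrc (ENSRNOG00000001766), Hba-a1 (ENSRNOG00000029886) and Hba-a2 (ENSRNOG00000047321). All 5 were present, had counts in all 6 libraries and passed the filter on low counts. The table pairs no identifier with a name; the symbols come from the rule that chose the genes, and no annotation used here tests them. The libraries were 3 from wild-type (WT) rats whose treatment is labelled exercise and 3 from wild-type rats with no treatment, here called exercised and control. The series title speaks of treadmill running at moderate intensity in adult animals; strain, sex, age in weeks, bone site and the time since the last run are not given there or in the labels. The tissue label is bone and the cell type label is "oeteocyte", the cell embedded in mineralized matrix. That label could not be checked against osteocyte, marrow, muscle or fat markers. The RefSeq annotation used here lists 0 Ensembl identifiers, so none of the 32883 could be paired with a symbol through it.

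Red cell precursors divide in the red marrow, take up iron, make haem and fill with haemoglobin before they lose the nucleus. Hba-a1 and Hba-a2 encode alpha globin, the protein chain that pairs with beta globin to form haemoglobin. Alas2 encodes the erythroid 5-aminolevulinate synthase, which catalyses the first and rate-limiting step of haem synthesis in these cells. Slc4a1 encodes band 3, the chloride and bicarbonate exchanger of the red cell membrane, which also anchors the membrane skeleton. Tfrc encodes the transferrin receptor, through which cells take up iron; erythroid precursors carry much of it, but dividing cells of many other types use it too. Osteocytes are not known to make haemoglobin, so these transcripts are commonly read in bone samples as RNA of marrow or blood.

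The upstream sequences of the alpha globin genes and of Tfrc are shown as background. Whether they bear on how these genes varied across the libraries was not tested. Of the 5 genes, 4 were matched by symbol in the RefSeq promoter table of assembly GRCr8. The 250 bases before the annotated start of each are written 5′ to 3′ on the strand of the gene, with capitals for GATAA, a core of sites bound by GATA1, the main erythroid transcription factor, and for CCAAT, on either strand (TTATC and ATTGG on the other).
Hba-a1, chr10:15842581-15842830, minus strand: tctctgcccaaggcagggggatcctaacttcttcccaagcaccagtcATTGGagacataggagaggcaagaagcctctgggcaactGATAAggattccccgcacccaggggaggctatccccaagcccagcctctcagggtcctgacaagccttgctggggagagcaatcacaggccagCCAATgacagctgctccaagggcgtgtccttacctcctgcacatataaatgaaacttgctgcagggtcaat
Hba-a2, chr10:15829139-15829388, minus strand: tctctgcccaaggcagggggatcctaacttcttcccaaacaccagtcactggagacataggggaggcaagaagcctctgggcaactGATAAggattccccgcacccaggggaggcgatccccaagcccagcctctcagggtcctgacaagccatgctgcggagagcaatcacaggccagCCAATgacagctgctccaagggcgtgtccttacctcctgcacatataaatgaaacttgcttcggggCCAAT
Tfrc, chr11:81690319-81690568, minus strand: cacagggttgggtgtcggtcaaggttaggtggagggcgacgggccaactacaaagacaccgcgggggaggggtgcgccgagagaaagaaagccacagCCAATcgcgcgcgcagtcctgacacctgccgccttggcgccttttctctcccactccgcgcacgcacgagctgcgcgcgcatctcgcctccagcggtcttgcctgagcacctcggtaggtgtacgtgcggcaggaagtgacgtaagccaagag

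The Hba-a1 and Hba-a2 windows were identical at 241 of 250 bases (96.4%), aligned without gaps, and the first 50 transcribed bases at 47 (94%). Both hold GATAA beginning 164 bases before the start, CCAAT beginning 71 bases before it and CACCC, a core of sites bound by the erythroid factor KLF1, beginning 149 bases before it. Hba-a1 has a further CCAAT on the opposite strand and Hba-a2 a further one ending at the start. The Tfrc window has no GATAA, 1 CCAAT, and CACCC on the opposite strand at 2 places. Among all 33469 promoter windows of this length, 23.5% hold GATAA, 34% hold CCAAT and 49.2% hold CACCC on either strand, so each match alone is common. No motif overlapped another. The Alas2 entry begins 4800 bases inside the annotated gene and is not printed. Slc4a1 was not matched. The near identity of the alpha globin copies also bears on the counts: reads from one copy may be assigned to the other, and 3 RefSeq genes carry Hba-a1 as symbol or synonym, so the split between the Hba-a1 and Hba-a2 rows is uncertain and their sum is given beside them.

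The 5 genes together held from 0.148% to 6.07% of all counts of a library, a 40.9-fold range. In exercised libraries their share was 1.17% in replicate 1, 1.59% in replicate 2 and 6.07% in replicate 3. In control libraries it was 0.36% in replicate 1, 2.22% in replicate 2 and 0.148% in replicate 3. Exercised replicate 3 stood above every other library, control replicate 2 came next and above the other exercised libraries, and control replicates 1 and 3 were lowest. The mean share was 2.94 ± 2.71% in exercised and 0.91 ± 1.14% in control libraries (SD, n = 3 each), and the groups overlapped. Single libraries set these means: without exercised replicate 3 the exercised mean was 1.38%, and without control replicate 2 the control mean was 0.254%. The exact 95% Clopper-Pearson interval was 6.05 to 6.08% for the highest share and 0.146 to 0.15% for the lowest; it covers counting error only. Library totals ran from 14056743 to 18126584 counts, and control replicate 3, with the lowest share, had the largest total.

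**Figure D1:**
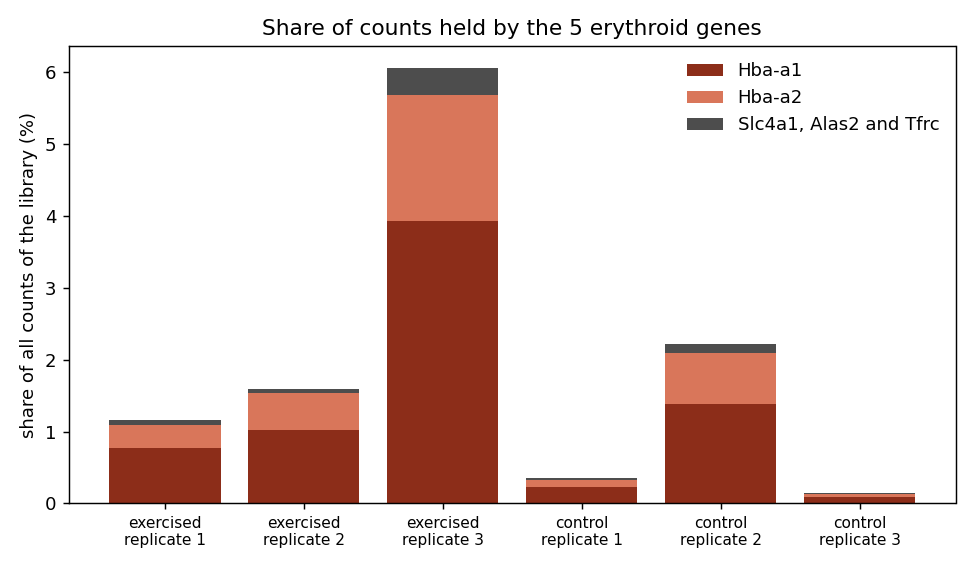
Bars give the share of all counts of a library (percent) held by Hba-a1, by Hba-a2 and by Slc4a1, Alas2 and Tfrc together, for 3 exercised and 3 control libraries. The total bar is highest in exercised replicate 3 at 6.07% and lowest in control replicate 3 at 0.148%, with control replicate 2 at 2.22% above exercised replicates 1 and 2.

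Alpha globin made up nearly all of that share. Hba-a1 and Hba-a2 together held 1.09%, 1.53% and 5.69% of counts in exercised replicates 1, 2 and 3, and 0.325%, 2.09% and 0.13% in control replicates 1, 2 and 3. This was 93.2 to 96.3% of the members' counts in exercised libraries and 87.8 to 94% in control libraries, as shares of counts that are not corrected for gene length. In exercised replicate 3, Hba-a1 had more counts than any other gene of the table. In the control libraries Hba-a1 stood 37th in replicate 1, 5th in replicate 2 and 100th in replicate 3 when genes were ranked by count.

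Hba-a1 had 7745, 10294 and 39305 CPM (counts of the gene per 1e6 counts of the library) in exercised replicates 1, 2 and 3, against 2252, 13804 and 897 CPM in control replicates 1, 2 and 3. The means were 19115 ± 17532 CPM in exercised and 5651 ± 7093 CPM in control libraries (SD, n = 3 each). Control replicate 2 lay above exercised replicates 1 and 2, so the groups overlapped. Hba-a2 had 3109, 5037 and 17584 CPM in exercised replicates 1, 2 and 3, against 1002, 7081 and 406 CPM in control replicates 1, 2 and 3. The libraries stood in the same order for both alpha globin rows.

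The ratio of Hba-a1 to Hba-a2 counts was 2.49, 2.04 and 2.24 in exercised replicates 1, 2 and 3, against 2.25, 1.95 and 2.21 in control replicates 1, 2 and 3. It varied by 1.28-fold over libraries in which the summed alpha globin level varied by 43.7-fold. The mean log2 ratio was 1.17 ± 0.14 in exercised and 1.09 ± 0.11 in control libraries (SD, n = 3 each). The groups differed by 0.077 on the log2 scale, less than the spread between replicates (exact permutation p = 0.5, two-sided, where 3 against 3 libraries cannot go below 0.1). Whether this ratio reflects the copies themselves or the way reads were divided between them was not tested.

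Alas2, the haem synthesis enzyme, had 173, 184 and 992 CPM in exercised replicates 1, 2 and 3, against 43.6, 297 and 11.5 CPM in control replicates 1, 2 and 3. The libraries stood in the same order as for alpha globin, from control replicate 3 up to exercised replicate 3. The means were 449.7 ± 469.6 CPM in exercised and 117 ± 156 CPM in control libraries (SD, n = 3 each), an 86.4-fold range over the 6 libraries. The ratio of Hba-a1 to Alas2 counts stayed between 39.6 and 55.9 in exercised libraries and between 46.5 and 78.1 in control libraries, a 1.97-fold range.

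Slc4a1, the band 3 anion exchanger, varied most of the 5. It had 361, 221 and 1946 CPM in exercised replicates 1, 2 and 3, against 82.3, 671 and 7.23 CPM in control replicates 1, 2 and 3. The highest library was 269-fold above the lowest, in which the gene had 131 counts. Its counts per Alas2 count were 2.08, 1.2 and 1.96 in exercised replicates 1, 2 and 3, against 1.89, 2.26 and 0.63 in control replicates 1, 2 and 3. Exercised replicate 2 and control replicate 3 thus had fewer Slc4a1 counts per Alas2 count than the other libraries. Hba-a1 counts per Slc4a1 count were likewise highest in control replicate 3, at 124, and next highest in exercised replicate 2, at 46.6; they lay between 20.2 and 27.4 in the other 4 libraries.

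Tfrc, the transferrin receptor, varied least, by 5.11-fold over the 6 libraries. It had 263, 180 and 826 CPM in exercised replicates 1, 2 and 3, against 221, 355 and 162 CPM in control replicates 1, 2 and 3. Exercised replicate 3 was again highest and control replicate 3 lowest, but exercised replicate 2 lay below control replicate 1; with TMM scaling, edgeR's scaling between libraries by trimmed means, exercised replicate 2 was lowest at 180 CPM, against 203 CPM in control replicate 3. The means were 423 ± 352 CPM in exercised and 246.0 ± 99.2 CPM in control libraries (SD, n = 3 each). In control replicate 3, where alpha globin, Alas2 and Slc4a1 were lowest, Tfrc kept 2929 counts. The counts of Alas2 per Tfrc count were 0.659 to 1.2 in exercised libraries and 0.071 to 0.836 in control libraries, and those of Slc4a1 per Tfrc count were 1.23 to 2.36 in exercised and 0.0447 to 1.89 in control libraries. In bulk libraries such as these, fewer cells of a type and less RNA per cell cannot be told apart.

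**Figure D2:**
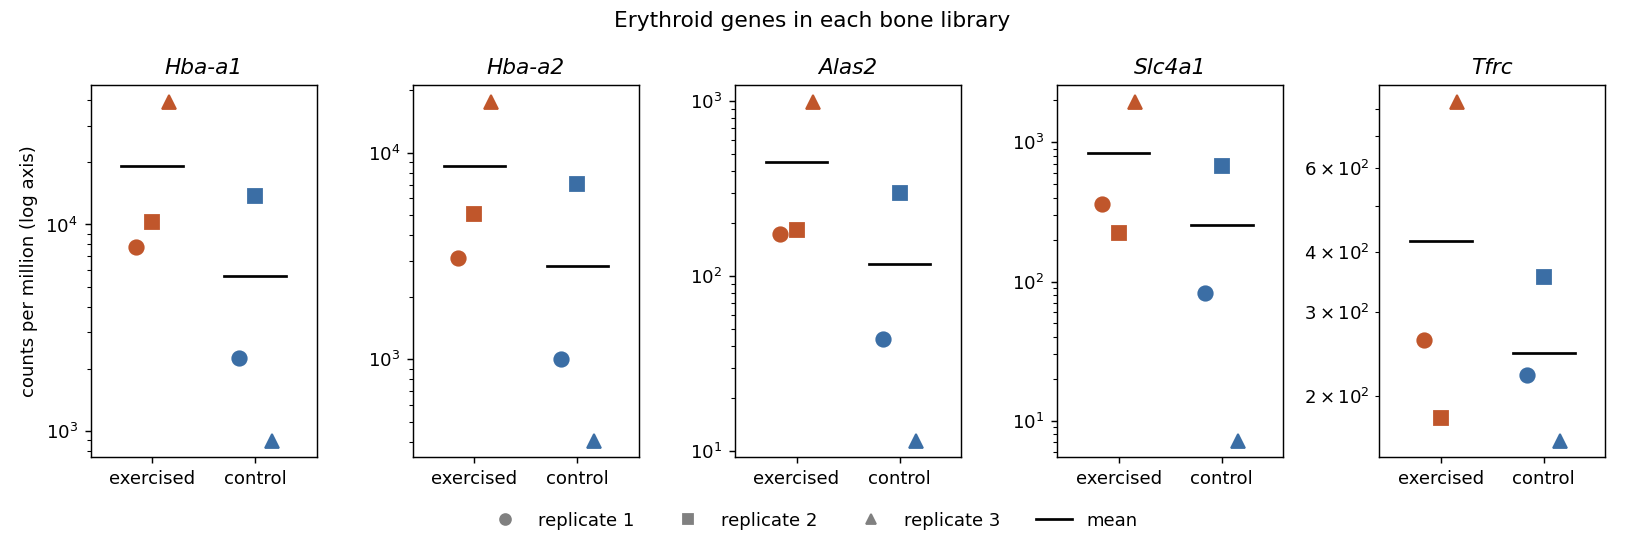
Each panel plots 1 gene in CPM on a log axis, with exercised libraries left and control libraries right; marker shapes give the replicate number and black lines the group means. In all 5 panels exercised replicate 3 is highest, control replicate 3 is lowest by library size and the groups overlap.

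**Figure D3:**
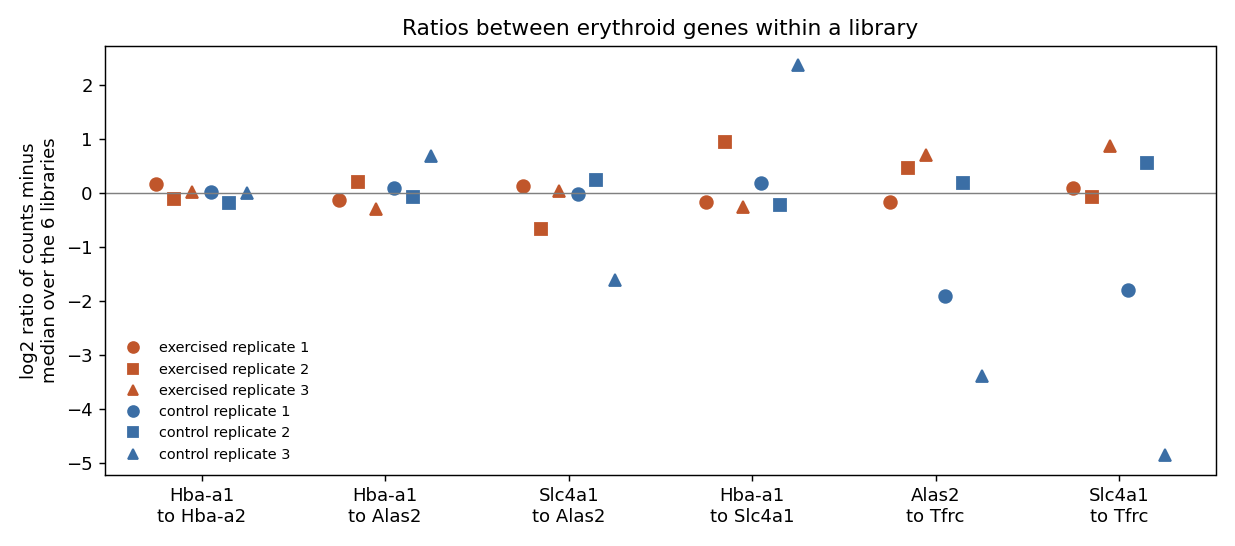
Points give the log2 ratio of counts between a pair of erythroid genes in each library, minus the median over the 6 libraries of that ratio. The Hba-a1 to Hba-a2 ratio spans 1.28-fold, the Hba-a1 to Alas2 ratio 1.97-fold, and the ratios to Tfrc up to 52.7-fold, with control replicates 1 and 3 lowest for Alas2 and Slc4a1 per Tfrc.

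Across the 6 libraries the members varied together, most closely Alas2 and alpha globin. On log2(CPM + 1), Alas2 and Hba-a1 correlated with Pearson's r = 0.997 (two-sided exact permutation p = 0.00278, 0.00926 after Benjamini-Hochberg adjustment over the 10 pairs) and Spearman's rho = 1 (p = 0.00278, adjusted 0.00926). The p of 0.00278 is the smallest that 6 libraries allow in this test. Without exercised replicate 3 and control replicate 3, the 2 libraries farthest from the median, r was 0.993. Hba-a1 and Hba-a2 gave r = 0.998 and rho = 1 with these same exact permutation p-values, and Alas2 and Hba-a2 gave r = 0.993.

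Slc4a1 followed the haem and globin genes slightly less closely. With Alas2 its r was 0.985 (two-sided exact permutation p = 0.00556, adjusted 0.0111) and its rho 0.943 (p = 0.0167, adjusted 0.0238); without the same 2 libraries r was 0.948. With Hba-a1 and Hba-a2 its r was 0.971 and 0.964, and 0.905 and 0.884 without those libraries. Tfrc was the looser member. Its r was 0.817 with Slc4a1, 0.825 with Alas2, 0.807 with Hba-a1 and 0.795 with Hba-a2, and the exact permutation p of r adjusted over the 10 pairs was 0.0159, 0.0382, 0.0389 and 0.0389. Its rho passed the threshold with Slc4a1 (0.943, adjusted exact p = 0.0238) but not with the other 3 genes (0.829 each, adjusted exact p = 0.0583). Without exercised replicate 3 and control replicate 3, the r of Tfrc was 0.711 with Slc4a1 and 0.463 with Alas2. With Hba-a1 and Hba-a2 it was 0.373 and 0.369. Without exercised replicate 3 alone, it was 0.709 with Alas2, 0.663 with Hba-a1 and 0.657 with Hba-a2. Without control replicate 3 alone, it was 0.825, 0.780 and 0.757 in that order. The relations of Tfrc with Alas2 and alpha globin thus depend more on exercised replicate 3. Without exercised replicate 2 alone, the r of Tfrc was 0.887 with Slc4a1 and 0.934 with Alas2. With Hba-a1 and with Hba-a2 it was 0.941, and all 10 pairs of members passed the threshold. How loosely Tfrc followed the other members thus depends in part on that library. The share of all gene pairs past this threshold was not computed, so the number of member pairs past it is not shown to be particular to these genes. With TMM-scaled CPM, the 4 pairs with Tfrc no longer passed the threshold, at r of 0.685 to 0.728. The labels give no batch, and within a group there are 3 libraries, too few for a correlation.

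**Figure D4:**
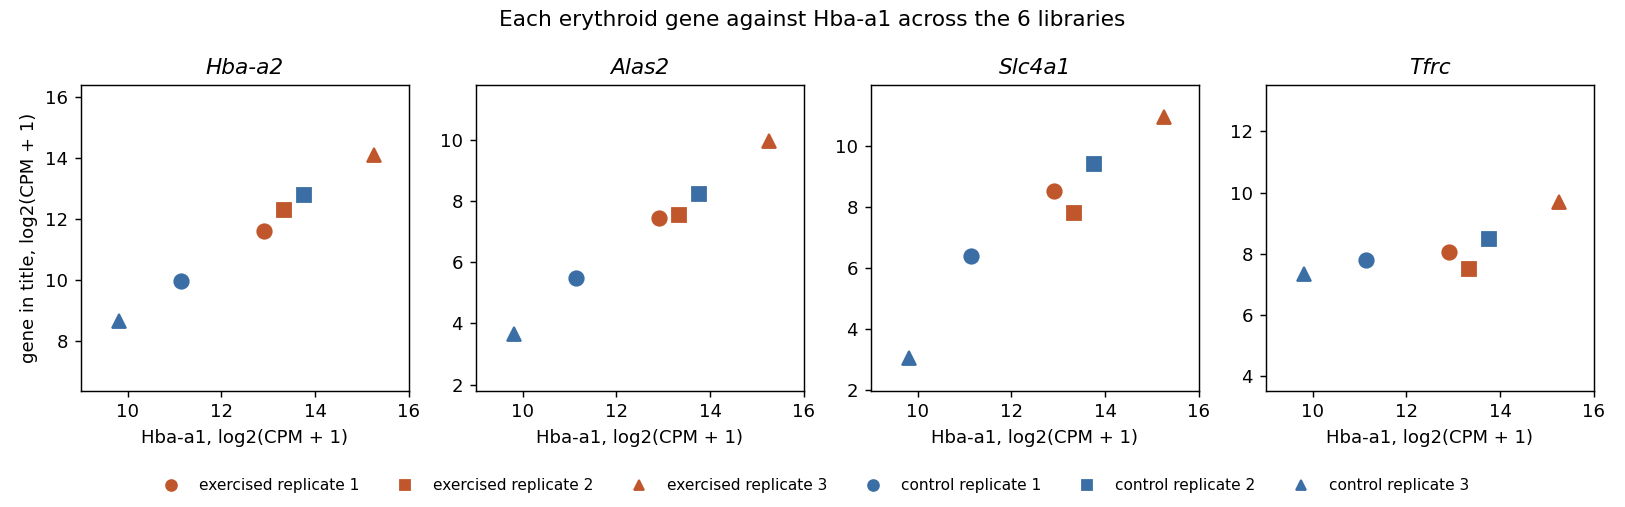
Each panel plots 1 gene against Hba-a1, both as log2(CPM + 1), with 1 point per library; all vertical axes span the same number of log2 units. Hba-a2, Alas2 and Slc4a1 climb steeply with Hba-a1 (r = 0.998, 0.997 and 0.971), whereas Tfrc climbs less steeply and with more scatter. The r of Tfrc is 0.807 over 6 libraries, 0.663 without exercised replicate 3 and 0.941 without exercised replicate 2.

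High correlations were frequent in these libraries, which sets the scale for those above. Of 9287 other genes that averaged 10 CPM or more, 11.4% had r of at least 0.95 with Alas2, and the median r with Alas2 was 0.543. Ordered by r with Alas2, Hba-a1 stood 4th of the 9287 genes, Hba-a2 46th, Slc4a1 208th and Tfrc 3070th. Ordered by r with Hba-a1, Hba-a2 stood 2nd and Alas2 7th, whereas Slc4a1 stood 438th and Tfrc 3209th. An r as high as that of Tfrc was thus common in these libraries. These places are descriptions over 6 libraries that share their totals and scaling.

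Among the 9283 other genes with a mean CPM of 10 or higher, those whose pattern was most like the mean standardized log2(CPM + 1) of the 5 members, named by identifier because the table holds no symbols, were ENSRNOG00000013820 (r = 0.9998 over 6 libraries) and ENSRNOG00000025448 (r = 0.999). ENSRNOG00000013820 had 8.49, 8.13 and 52.0 CPM in exercised replicates 1, 2 and 3, against 2.71, 16.1 and 0.221 CPM in control replicates 1, 2 and 3. The 0.221 CPM is near the floor and below the 1 CPM added before log2 was taken, so its r depends in part on that added value. ENSRNOG00000025448 had 34.2, 33.5 and 218.9 CPM in exercised replicates 1, 2 and 3, against 9.87, 68.9 and 2.59 CPM in control replicates 1, 2 and 3. Both stood highest in exercised replicate 3 and lowest in control replicate 3. In all, 1494 of these 9283 genes (16.1%) had r of at least 0.95 with that mean pattern, and 63 (0.679%) had r of at most -0.95.

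The order of the libraries in alpha globin and Alas2 was also their order on the first principal component of log2 CPM over 14495 genes, which held 65.3% of the variance. Turned so that the members point upwards, the scores were -3.46, 1.52 and 117 in exercised replicates 1, 2 and 3, and -41.5, 52.7 and -126 in control replicates 1, 2 and 3. By weight on this component, in its positive direction, Slc4a1 stood 55th of the 14495 genes, Alas2 334th, Hba-a2 597th, Hba-a1 624th and Tfrc 2579th. The SD of log2 CPM over the 6 libraries was 2.59 for Slc4a1, larger than in 99.3% of genes, and 0.70 for Tfrc, larger than in 65.9%. The members are among the genes the component is computed from, so these places describe it and test nothing.

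Between exercised and control bone, none of the 5 genes passed the threshold. The test was edgeR's quasi-likelihood test over 14495 genes with Benjamini-Hochberg adjustment and a threshold of 0.05; it called 0 of 5 members and 0% of all genes. At an unadjusted p under 0.05 it gave 0 of 5 members and 1.7% of all genes, and DESeq2 called 0.00692% of all genes by adjusted p and none of the 4 members for which it gave a p, which it withheld for Alas2. By CPM scaled to library size, the 3 exercised libraries lay all above or all below the 3 control libraries in 0 of 5 members. By TMM-scaled CPM this was so in 7.37% of all genes, and the groups overlapped in each member by that scaling too.

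The 9 pairs of an exercised and a control library were compared by CPM scaled to library size. The exercised library was higher in 7 for Hba-a1, Hba-a2, Alas2 and Slc4a1 and in 6 for Tfrc. With TMM scaling, Tfrc in exercised replicate 2 fell below control replicate 3 (180 against 203 CPM), so fewer of its pairs go this way. These genes vary together and are not independent. The fold differences that follow use TMM scaling. The log2 fold difference was 1.81 for Hba-a1 (SE 1.21) and 1.66 for Hba-a2 (SE 1.15). It was 1.99 for Alas2 (SE 1.14), 1.8 for Slc4a1 (SE 1.42) and 0.67 for Tfrc (SE 0.55). The adjusted p by edgeR was 0.889 for each of the 5 genes. The median over the members was 1.8, against 0.01 over all genes tested. The standard errors of Slc4a1, Hba-a1, Hba-a2 and Alas2 exceeded those of 98.5%, 95.7%, 94.7% and 94.5% of genes, and the median SE over all genes was 0.42.

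Single libraries decided the size of these differences. Without exercised replicate 3, the log2 fold difference was 0.90 for Hba-a1, 0.75 for Hba-a2, 0.85 for Alas2 and 0.48 for Slc4a1, and for Tfrc it was -0.08. Without control replicate 2, it was 3.31 for Hba-a1, 3.31 for Hba-a2, 3.75 for Alas2, 3.98 for Slc4a1 and 0.83 for Tfrc. In that fit 4 of 5 members, all but Tfrc, had an unadjusted p under 0.05, as did 8.93% of all genes, and the smallest adjusted p of a member by edgeR was 0.537. Without both libraries numbered 3, the highest and the lowest of the 6, it was 0.43 for Hba-a1, 0.27 for Hba-a2, 0.34 for Alas2, -0.09 for Slc4a1 and -0.20 for Tfrc. The spread within a group was wide. For Hba-a1 the highest library was 5.07-fold above the lowest among exercised and 15.4-fold among control libraries. The ratio of its group means was 3.38-fold, a measure not directly comparable with such a range. The share of red marrow or blood in each sample was not measured, so its part in these values was not tested.

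**Figure D5:**
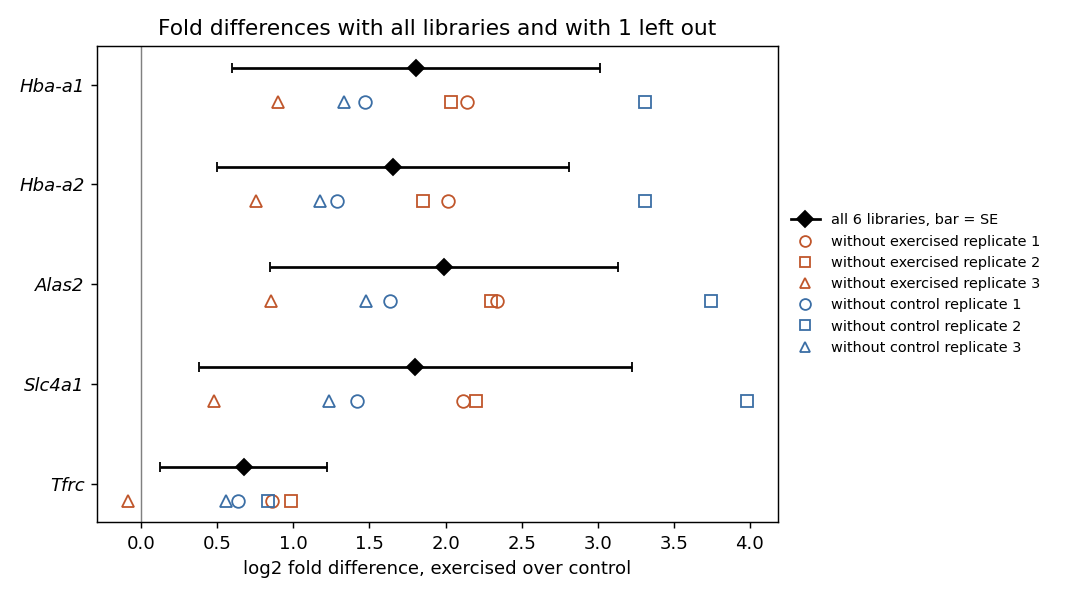
Black diamonds give the log2 fold difference of exercised over control by edgeR with all 6 libraries, with bars of 1 SE; open markers give it with 1 library left out. Leaving out exercised replicate 3 gives the lowest of these values for every gene (-0.08 for Tfrc to 0.90 for Hba-a1), and leaving out control replicate 2 gives the highest for all but Tfrc (3.31 to 3.98).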

How the data were processed

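Gene expression was measured by RNA sequencing in bone of 3 exercised and 3 control rats; groups and replicate numbers come from the sample titles, and columns were assigned by library name. The deposited columns are called FPKM in their headers, but all values are whole numbers with unequal totals, so the deposited values were treated as counts. The tools named in the submitters' processing notes are HISAT2 2.1.0, StringTie, edgeR, fastp 0.19.5 and CASAVA 1.8, with no role or order. The builds named there are human and mouse; no source used here gives the rat build or whether counting used strand. The members, lists and tests were chosen with earlier results of these data known.

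Differences were tested with edgeR 4.0.16 (R 4.3.3; TMM, filterByExpr with minimum count 10 and total 15), the SE being the absolute log2 fold difference over the square root of F. Alternatives were DESeq2 1.42.0, limma 3.58.1 (voom), other scalings, no filter, a replicate block and left-out libraries. The edgeR, DESeq2 and limma fits were checked on simulated counts with a lower dispersion (variability between replicates beyond counting error) than these data. In these data the median dispersion over all genes tested was 0.18, against 0.26 for Tfrc and 1.14 for Slc4a1. The check therefore does not show how well changes in the members would be found. Permutation tests used scipy 1.17.1. The named genes were the 5 members and, without symbols, the 2 genes most like their mean pattern; lists of other erythroid, haem and cell type genes could not be matched. Per the design text each group is 3 rats, and the p-values rest on the spread among those animals' libraries.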

Additional observations from a re-analysis of the deposited data

How the results depend on the processing

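No member passed the threshold in any of the 14 alternatives. Among all genes, DESeq2 called 1 and every other alternative called 0, so this result is not particular to the members. The adjusted p of the members ran from 0.537 to 1.00. DESeq2 gave 0.916 for 4 members and no p for Alas2. Leaving out 1 library moved the log2 fold difference between 0.90 and 3.31 for Hba-a1, 0.75 and 3.31 for Hba-a2, 0.85 and 3.75 for Alas2, 0.48 and 3.98 for Slc4a1, and -0.084 and 0.98 for Tfrc. Without both libraries numbered 3 it was -0.086 for Slc4a1 and -0.20 for Tfrc. That fit left out the libraries with the highest and the lowest share of counts held by the members, and the cause was not tested. Deviations from the group mean in libraries of the same number correlated at 0.31, -0.41 and -0.49 for numbers 1, 2 and 3. These values are not independent, since they share the group means, and do not show whether libraries were paired. With the replicate block the log2 fold differences were 2.09 for Hba-a1, 1.99 for Hba-a2, 2.31 for Alas2, 2.39 for Slc4a1 and 0.44 for Tfrc. With limma voom they were 2.19, 2.12, 2.46, 2.76 and 0.42 in the same order of genes. Scaling by library size alone shifted the median of all genes to 0.09 and gave 0.78 for Tfrc. The 10 pairs of members past the threshold for r became 6 with TMM-scaled CPM and ranged from 0 to 10 with 1 library left out: 0 without exercised replicate 3, control replicate 2 or control replicate 3. The share of all gene pairs past it was not computed in any of these settings. With 5 libraries the smallest exact p is 0.0167, and r itself stayed between 0.657 and 0.999. The difference in the log2 ratio of Hba-a1 to Hba-a2 ran from 0.0037 to 0.147. The smallest count of a member was 131, for Slc4a1 in control replicate 3, and an effect of depth was not tested.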
